A study of Mus musculus with 4 samples.

Results

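The clustered protocadherin genes were examined in chemically transformed mouse fibroblasts with and without diethyl maleate (DEM), a compound that depletes cellular glutathione. Members were all genes whose name on the array was Pcdha, Pcdhb, Pcdhga, Pcdhgb, Pcdhgc or Pcdhac followed by a number. The rule found 30 genes among the 49739 genes and transcripts on the array. These were 3 of the 14 alpha genes in RefSeq, all 22 beta genes and 5 of the 22 gamma genes, read by 43 probes. Genes were selected on their names, and where a gene had several probes the brightest was chosen by its signal over the 4 arrays. The family itself was chosen with its differences between DEM and untreated cells known, so the changes below are given as a description and not as independent evidence.

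Clustered protocadherins are cell surface adhesion proteins of the cadherin superfamily that bind the same isoform on a neighbouring cell. They are best known in neurons, where each cell uses its own combination of isoforms and so can tell its own branches from those of other cells. In the alpha and gamma clusters, each variable exon has its own promoter and is spliced to constant exons shared by the whole cluster, so all isoforms of a cluster carry the same 3′ end. Each beta gene is a single exon with its own 3′ end and no shared constant exons. CTCF and cohesin bring distant enhancers to the promoters of the clusters, and DNA methylation and the chromatin protein SMCHD1 take part in silencing them.

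The cells were C3H10T1/2, a fibroblast line from mouse embryos in which transformation is scored as foci in the dish. All 4 samples had received the polycyclic hydrocarbon 3-methylcholanthrene (MCA) at 2.5 µg/ml for 2 days, then the phorbol ester TPA at 100 ng/ml for 2 weeks, and then normal medium for 4 weeks. One group then received no further agent (untreated, 2 samples) and the other received 0.25 mM DEM (2 samples). How long the cells were exposed is not stated in the labels. The labels describe no picking or cloning of transformed foci and do not say that samples of a group came from separate cultures. The p-values below therefore reflect nothing beyond the variation among these 4 samples, and that variation may be technical.

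RNA was copied with an oligo-dT primer, labelled with Cy3 and hybridised to 1 custom Agilent mouse array per sample. A level is given throughout on a log2 scale relative to the array's own 75th percentile of signal, so a level of 0 equals that percentile. The DEM arrays were dimmer, with a 75th percentile of 449.9 and 412 signal units against 701 and 747 on the untreated arrays. The lowest level that the scanner software marked as well above background was correspondingly higher, at -4.28 and -4.16 against -4.82 and -4.80. Between 47.8% and 52.7% of probes were well above background on each array, and array-to-array correlations across probes were 0.987 and 0.984 within groups. Genes were tested if a probe was well above background on at least 2 of the 4 arrays, with limma and Benjamini-Hochberg adjustment over all 24658 genes tested; a gene was called higher or lower at an adjusted p under 0.05. Of these genes 15.5% were higher with DEM and 11.8% were lower, and the median difference over all of them was 0.16 on the log2 scale.

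The fibroblast label was checked with 13 marker genes. Collagen I (Col1a1 and Col1a2), vimentin (Vim) and Thy1 were detected well above background on every array, and each fibroblast marker was detected on at least 2 arrays. Of 13 neuron markers, 8 were not well above background on any array, among them Rbfox3, Snap25, Syp, Gap43 and Dcx. Tubb3 and Map2 were well above background on all 4 arrays. Map2 stood at 1.92 and 1.63 in untreated cells and at -0.12 and 0.45 in DEM cells. Syt1, Nefm and Elavl3 were each well above background on 1 array. The clustered protocadherins were thus measured in RNA in which 8 of the 13 listed neuron markers were not detected on any array and 2 were detected on all.

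Before any comparison, signal was present for less than the whole family. The brightest probe was well above background on all 4 arrays for 13 of the 30 members (43.3%), against 42.6% of all genes on the array. By cluster this was 2 of 3 alpha, 9 of 22 beta and 2 of 5 gamma members. The count of beta members well above background was 14 in untreated 1, 15 in untreated 2, 11 in DEM 1 and 9 in DEM 2. The dimmer signal and higher detection limit of the DEM arrays moved with this count, and their part in it was not tested. Another 8 members were not well above background on any array: Pcdha4, Pcdhb1, Pcdhb2, Pcdhb3, Pcdhb8, Pcdhb9, Pcdhb13 and Pcdhga9, with levels from -7.14 to -5.39. Pcdhb4, Pcdhb10, Pcdhb11 and Pcdhgb4 were well above background on a single array. These 12 members were not tested.

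**Figure D1:**
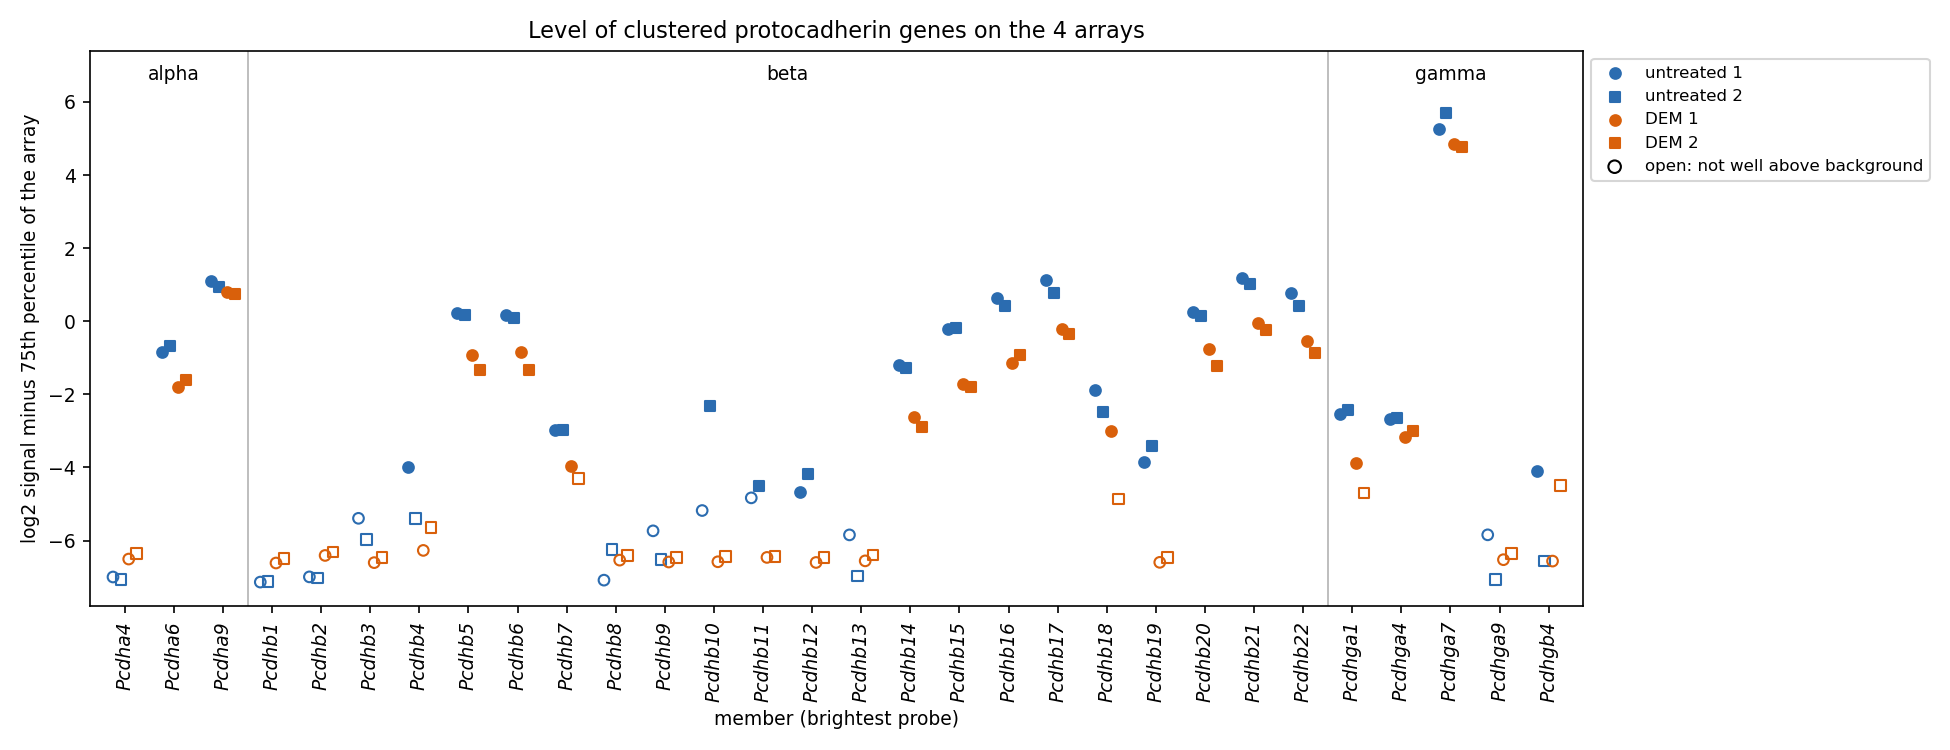
Level of each of the 30 members (brightest probe) on the y axis, as log2 signal relative to the array's 75th percentile, on untreated (blue) and DEM (orange) arrays, with replicate 1 as circles and replicate 2 as squares; open symbols were not well above background. The 9 beta members with filled symbols throughout had both DEM arrays below both untreated arrays, and Pcdhb1 and Pcdhb2 sat at the floor on every array.

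In the beta cluster, 12 of the 13 members tested were lower with DEM, against 11.8% of all genes tested. Members of unlike signal stand behind that count. The 9 members well above background on every array (Pcdhb5, Pcdhb6, Pcdhb14, Pcdhb15, Pcdhb16, Pcdhb17, Pcdhb20, Pcdhb21 and Pcdhb22) were all lower, by 2.30-fold to 2.97-fold, with a median log2 difference of -1.31. The others were near the detection limit in DEM cells, and Pcdhb12 and Pcdhb19 passed the filter only through the untreated arrays, which favours a lower call, so nothing is read from theirs. Both DEM arrays were below both untreated arrays for 17 of all 22 beta members, tested or not, against 15.5% of the 49739 genes on the array. Of those members, Pcdhb3, Pcdhb4, Pcdhb10, Pcdhb11, Pcdhb12 and Pcdhb19 were not well above background on either DEM array. The median difference over all 22 was -1.26, against 0.47 over all genes on the array, tested or not. Both all-gene values include undetected probes, and members undetected throughout with surrogate values had nominal differences of 0.58 to 0.64. Over genes tested, the median was -1.34 in the beta cluster and 0.16 over all genes. In these bulk samples, fewer cells with a given RNA and less of that RNA per cell cannot be told apart.

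The beta genes encode adhesion proteins with a short cytoplasmic tail of their own, and their individual roles are little known. Pcdhb16 stood at 0.65 and 0.43 in untreated 1 and 2 and at -1.14 and -0.92 in DEM 1 and 2. It was 2.97-fold lower with DEM (log2 difference -1.57, SE 0.21, limma adjusted p = 0.00519), the greatest difference of the 9. Pcdhb15 stood at -0.21 and -0.20 in untreated cells and at -1.72 and -1.80 in DEM cells. The groups lay far apart beside a spread of at most 0.06 (SD, n = 2), and Pcdhb15 was 2.94-fold lower (adjusted p = 0.00487). Pcdhb14 stood at -1.21 and -1.28 without DEM and at -2.63 and -2.91 with it, which was 2.88-fold lower (adjusted p = 0.00807), with a difference of -0.87 after normexp correction. In the main fit these 3 neighbours in the numbering had differences of -1.52 to -1.57, within 1 standard error of each other. With normexp correction they lay further apart, Pcdhb15 at -1.11 and Pcdhb16 at -1.35 beside the -0.87 of Pcdhb14.

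Pcdhb5 gave levels of 0.22 and 0.18 in the untreated samples and of -0.94 and -1.34 in the DEM samples. Its difference was -1.34 (SE 0.22, adjusted p = 0.0102), or 2.53-fold lower. Pcdhb22 gave 0.78 and 0.42 against -0.55 and -0.88 and was 2.48-fold lower (adjusted p = 0.0121). For both genes the gap between the groups was wider than the distance between arrays of a group. Pcdhb21 gave 1.19 and 1.03 in untreated cells and -0.05 and -0.25 in DEM cells, 2.40-fold lower (adjusted p = 0.00807). Pcdhb17 gave 1.13 and 0.78 in untreated cells and -0.20 and -0.36 in DEM cells, 2.36-fold lower (adjusted p = 0.0109). Neither gene had overlapping groups.

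Pcdhb6 stood at 0.16 and 0.09 without DEM and at -0.84 and -1.33 with DEM. Its fold was 2.32 lower (log2 difference -1.21, SE 0.24, adjusted p = 0.0166). Pcdhb20 stood at 0.26 and 0.15 without DEM and at -0.77 and -1.23 with DEM, and was 2.30-fold lower (adjusted p = 0.0159). In both genes DEM 2 was the lowest array. Across the 9 members, DEM 2 was below DEM 1 in 8, Pcdhb16 being the exception, and untreated 2 was below untreated 1 in 8, Pcdhb15 being the exception. The 9 differences spanned 0.37 on the log2 scale while their standard errors were 0.20 to 0.24. The smallest gap between the lowest untreated and the highest DEM array was 0.91, and the greatest SD within a group was 0.25 in untreated and 0.35 in DEM cells (n = 2).

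**Figure D2:**
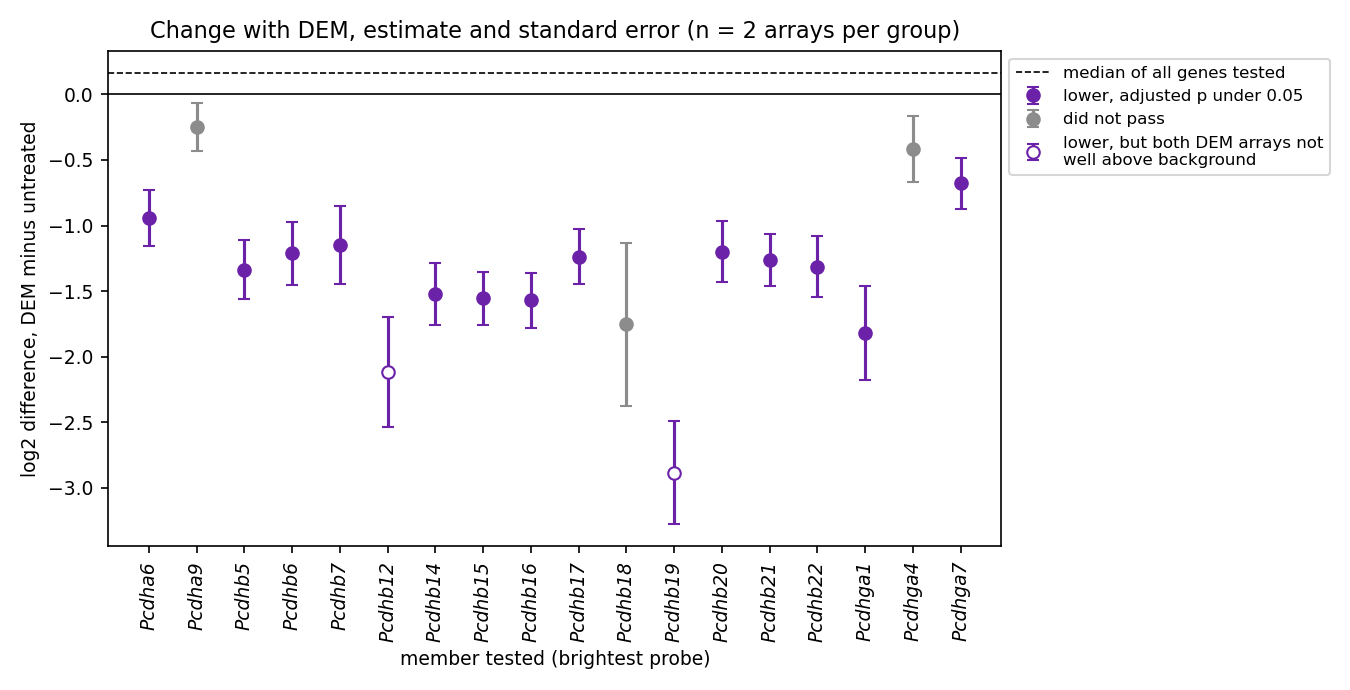
Log2 difference (DEM minus untreated) with its limma standard error for the 18 members tested, 2 arrays per group; filled purple points passed, grey points did not, open points passed but were not well above background in DEM cells, and the dashed line is the median of all genes tested (0.16). The 9 beta members measured on every array lay between -1.57 and -1.20, and Pcdha9 and Pcdhga4 lay nearest to 0.

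The remaining tested beta members were dimmer. Pcdhb7 stood at -2.98 on both untreated arrays and at -3.95 in DEM 1, and was not well above background in DEM 2 (-4.30). The fitted difference was -1.15 (SE 0.30, adjusted p = 0.0356); with normexp background correction it was -0.20 (adjusted p = 0.201) and the call was lost. Pcdhb18 stood at -1.88 and -2.49 in untreated cells, at -3.01 in DEM 1 and at -4.86, not well above background, in DEM 2. It did not pass (log2 difference -1.75, SE 0.62, adjusted p = 0.0843), and the DEM arrays differed from each other more than DEM 1 did from untreated 2. Without DEM 1, which leaves only the DEM array on which it was not detected, the difference was -2.68 (adjusted p = 0.00223); without DEM 2 it was -0.83 (adjusted p = 0.0938), and with normexp -0.58 (adjusted p = 0.0576).

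Pcdhb19 stood at -3.86 and -3.43 in untreated cells and was not well above background in either DEM sample (-6.60 and -6.46). The detection limit of the DEM arrays sets a bound of at least 1.49-fold lower. Its adjusted p of 0.0055 came with entry into the test through the untreated arrays alone, and with normexp the difference was -0.37 (adjusted p = 0.0472). Pcdhb12 stood at -4.66 and -4.18 in untreated cells and was likewise not well above background with DEM (-6.60 and -6.47). Its untreated level lay below the DEM detection limit, so no fold is given, and it too entered the test through the untreated arrays alone (adjusted p = 0.0169); with normexp correction the difference was -0.08 (adjusted p = 0.599). Among untested members, Pcdhb10 was well above background in untreated 2 (-2.32) and in no other sample, Pcdhb11 in untreated 2 (-4.50), and Pcdhb4 in untreated 1 (-3.99).

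Detection was uneven along the beta numbering. All 9 members from Pcdhb14 to Pcdhb22 were tested, 7 of them were well above background on every array and 8, Pcdhb19 included, were lower with DEM. Of the 13 members from Pcdhb1 to Pcdhb13, 4 were tested (Pcdhb5, Pcdhb6, Pcdhb7 and Pcdhb12), 2 were well above background on every array and 4, Pcdhb12 included, were lower. These counts stand beside 11.8% lower over all genes tested, and Pcdhb12 and Pcdhb19 entered through the untreated arrays alone. Pcdhb1, Pcdhb2 and the alpha member Pcdha4 held the scanner software's surrogate value for undetected spots on all 4 arrays. Their nominal differences of 0.58 to 0.64 are differences between scaled surrogate values and not between measured signals.

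The beta calls depended on both untreated arrays. Both DEM arrays were below both untreated arrays for all 13 beta members tested, so the sign of a difference could not change with 1 array left out. Without untreated 1 a single beta member passed (Pcdhb19), without untreated 2 a single one passed (Pcdhb16), and all beta differences stayed below 0 in both cases. The adjusted p of Pcdhb15 was then 0.0584 and 0.0643, and that of Pcdhb6 was 0.118 and 0.112. Over all genes the count of lower genes fell from 2900 to 872 and 802 without the same arrays. Scaling to spike-in controls in place of the 75th percentile left 1 beta member lower (Pcdhb19) with a beta median of -1.50, and 889 genes lower over the whole array.

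Probes of the same beta gene gave like values where both were detected. The 2 probes of Pcdhb15 differed by -1.55 and -1.39 between groups, those of Pcdhb16 by -1.57 and -1.37, and those of Pcdhb17 by -1.24 and -1.42. Each of the second probes passed when every probe was tested on its own (adjusted p = 0.00947, 0.00876 and 0.0084, over 31771 probes). The second probes of Pcdhb5 and Pcdhb19 and both probes of Pcdhb13 were not well above background on any array, so for Pcdhb5 and Pcdhb19 the call rests on 1 probe of 2.

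Since beta genes resemble each other, the 60-base probes were compared for shared sequence. Among 886 pairs of probes of different members, the median longest shared run was 6 bases. Only 2 pairs shared a run of 20 or more bases: Pcdhb15 with Pcdhb6 (23 bases) and Pcdhb5 with Pcdhb6 (22 bases). Within genes, the probes of Pcdhb15 shared 20 bases. Hybridisation of one beta transcript to another member's probe was not tested. Probes were compared with each other and not with other members' transcripts, so the shared runs cannot decide it.

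The alpha cluster is named here through its probes, because most of its signal did not come from probes for single isoforms. A dim probe for a single alpha or gamma isoform is not read here as low expression of that isoform. RNA was copied with an oligo-dT primer, and the distance of each probe from the 3′ end was not compared. Pcdha6 and Pcdha9 each had a brightest probe that lists 9 RefSeq transcripts in the array's accession column. Such a probe is taken here to read several alpha isoforms together, which rests on that column alone and was not tested. On the shared probe named Pcdha6, levels were -0.83 and -0.69 in untreated cells and -1.79 and -1.62 in DEM cells. This probe was 1.92-fold lower (log2 difference -0.94, SE 0.21, adjusted p = 0.0243). On the brightest shared probe named Pcdha9, levels were 1.09 and 0.95 against 0.80 and 0.74, a difference of -0.25 that did not pass (SE 0.18, adjusted p = 0.355). A second shared probe of that name, at -0.84 and -1.04 against -1.06 and -0.90, had overlapping groups and a difference of -0.04.

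The shared alpha probes, at -0.94, -0.25 and -0.04, did not give 1 value for the cluster, so what each of them reads is uncertain. Probes listing a single transcript were near background: that of Pcdha6 read -4.65 and -4.44 in untreated and -4.51 and -3.77 in DEM cells, a difference of 0.40 that did not pass (adjusted p = 0.483 over probes). The single-transcript probe of Pcdha9 read -4.42 and -3.31 against -3.63 and -4.59, with overlapping groups. When all kept probes of a gene were averaged, the difference of Pcdha6 was -0.27 and no longer passed (adjusted p = 0.499).

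**Figure D3:**
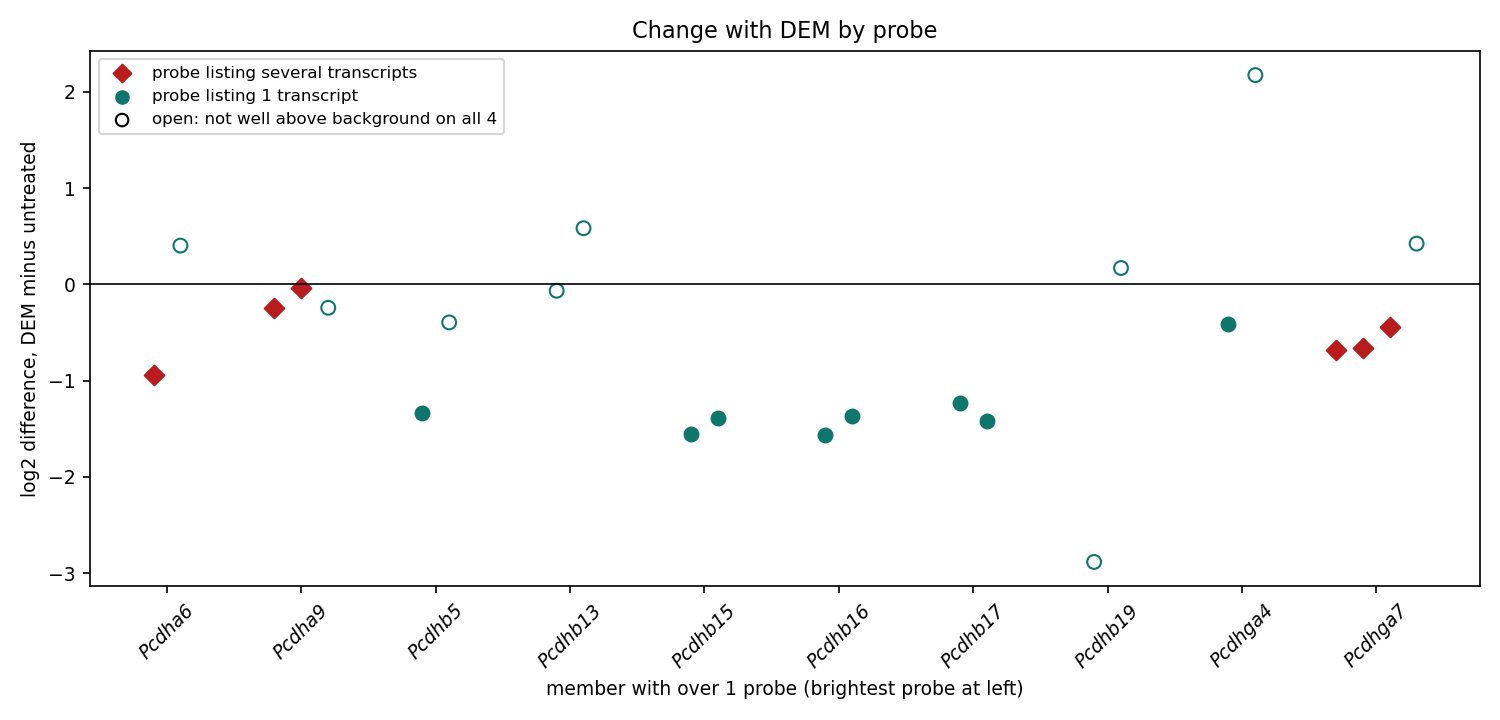
Log2 difference (DEM minus untreated, y axis) of every probe of the 10 members with more than 1 probe, brightest at left; red diamonds list several RefSeq transcripts, green circles list 1, and open symbols were not well above background on all 4 arrays. Both probes of Pcdhb15, Pcdhb16 and Pcdhb17 lay between -1.57 and -1.24, while the shared alpha and gamma probes lay between -0.94 and -0.04.

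In the gamma cluster the same distinction held. All 6 shared alpha and gamma probes were well above background on every array, against 1 of the 9 alpha and gamma probes that list 1 transcript. On the brightest shared gamma probe, named Pcdhga7, levels were 5.26 and 5.71 in untreated cells and 4.85 and 4.76 in DEM cells. It was 1.60-fold lower (log2 difference -0.68, SE 0.19, adjusted p = 0.0485). The second shared probe, which overlaps it by 40 bases, gave -0.66 (adjusted p = 0.0607 over probes), and the third gave -0.44 (adjusted p = 0.175 over probes). The single-transcript probe of Pcdhga7 was not well above background on any array, so these values are not attributed to that isoform; that the other probes read gamma transcripts in common rests on the accession column alone. The call on Pcdhga7 was lost when untreated 1 (adjusted p = 0.0792), untreated 2 (0.291) or DEM 2 (0.0702) was left out, but not when DEM 1 was (adjusted p = 0.0481), and was lost without a variance trend (adjusted p = 0.0953).

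Among gamma probes that list 1 transcript, those of Pcdhga1 and Pcdhga4 gave signal on at least 2 arrays. That such a probe reads a single isoform was not tested. Pcdhga1 stood at -2.53 and -2.42 in untreated cells, at -3.89 in DEM 1 and, not well above background, at -4.70 in DEM 2. Its fitted difference was -1.82 (SE 0.36, adjusted p = 0.0166), and with normexp it was -0.53 (adjusted p = 0.0211). It no longer passed when untreated 1 was left out (-1.87, adjusted p = 0.103) or when untreated 2 was (-1.76, adjusted p = 0.123). Pcdhga4 stood at -2.69 and -2.64 against -3.16 and -3.00; the groups did not overlap, but the difference of -0.42 did not pass (SE 0.25, adjusted p = 0.266). A second Pcdhga4 probe was well above background in DEM 1 alone (-3.31). Pcdhgb4 was well above background in untreated 1 alone (-4.09).

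Over the clusters together, 15 of the 18 members tested were lower with DEM and 0 were higher, beside 11.8% lower and 15.5% higher over all genes tested. All 18 had a negative difference, against 40.5% of all genes tested. The 15 include Pcdhb12 and Pcdhb19, which entered the test through the untreated arrays alone. The 18 also include Pcdha6, Pcdha9 and Pcdhga7, each read by a probe that lists 9 transcripts and is not attributed to that isoform. With single-transcript probes the difference of Pcdha6 was 0.40 and did not pass. The single-transcript probe of Pcdhga7 was not well above background on any array. The beta median was -1.34 over the 13 tested, or -1.26 with Pcdhb12 and Pcdhb19 set at their bounds. Shared gamma probes differed by -0.44 to -0.68 and shared alpha probes by -0.04 to -0.94. Whether the clusters differed in their response was not tested.

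Of the 13 fibroblast markers 7 were lower with DEM (Col1a2, Col3a1, Pdgfra, Pdgfrb, Dcn, Lum and Fap), 0 were higher and 6 did not pass, beside 11.8% lower and 15.5% higher over all genes tested. Lum and Fap entered the test through the untreated arrays alone. Col1a1, Vim and Thy1 had differences of -0.04, -0.28 and 0.23 and did not pass. The log2 summed level of the list was 10.62 and 10.67 in untreated and 9.73 and 10.29 in DEM cells. Of the neuron markers, Map2 was 3.05-fold lower (adjusted p = 0.00853) and Tubb3 did not pass (log2 difference 0.20); the summed level was 2.16 and 1.90 against 0.79 and 1.20. Glial markers were not well above background on any array in 5 of 9 cases and epithelial markers in 4 of 8, with 3 of each tested and 0 called by limma (1 glial and 0 epithelial markers had an unadjusted p under 0.05). Lyz2 of 6 macrophage markers and Tek of 6 endothelial markers were lower, Tek having entered through the untreated arrays alone. Cd68 was well above background on all 4 arrays and did not pass (log2 difference 0.27). Csf1r, Pecam1 and Vwf were each well above background on 1 array. Ptprc, Adgre1, Itgam, Cdh5, Kdr and Tie1 were not well above background on any array. The part of these differences in the protocadherin result was not tested.

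Protocadherins that are not members of the 3 clusters were read out as a list of their own. Of 12 such genes on the array 8 were tested, 5 were lower and 1 was higher, beside 11.8% and 15.5% of all genes tested, with a median of -1.47 (-1.05 with 2 genes at their bounds). Pcdh18 stood at 0.33 and 0.32 in untreated cells and at -2.39 and -1.78 in DEM cells and was 5.31-fold lower (adjusted p = 0.00318). Pcdh7, a widely used adhesion protein of this group, was 2.87-fold lower (adjusted p = 0.00987), and Pcdh19 was 2.68-fold lower (adjusted p = 0.0187). Pcdh12 and Pcdh9 entered the test through the untreated arrays alone (adjusted p = 0.00378 and 0.0136); the detection limit puts them at least 2.31-fold and 1.85-fold lower, and nothing is read from their calls. Pcdh1 went the other way, from -0.05 and -0.24 to 0.70 and 0.56, and was 1.71-fold higher (adjusted p = 0.0328). Among 9 Fat, Dachsous and Celsr cadherins, large adhesion proteins of planar cell polarity, 5 were tested. Fat4 alone passed, at 6.36-fold lower (adjusted p = 0.00241), and Fat1, at 4.83 and 4.27 against 4.22 and 4.38, had overlapping groups. Celsr2 and Celsr3 did not pass (log2 differences 0.25 and 0.17).

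**Figure D4:**
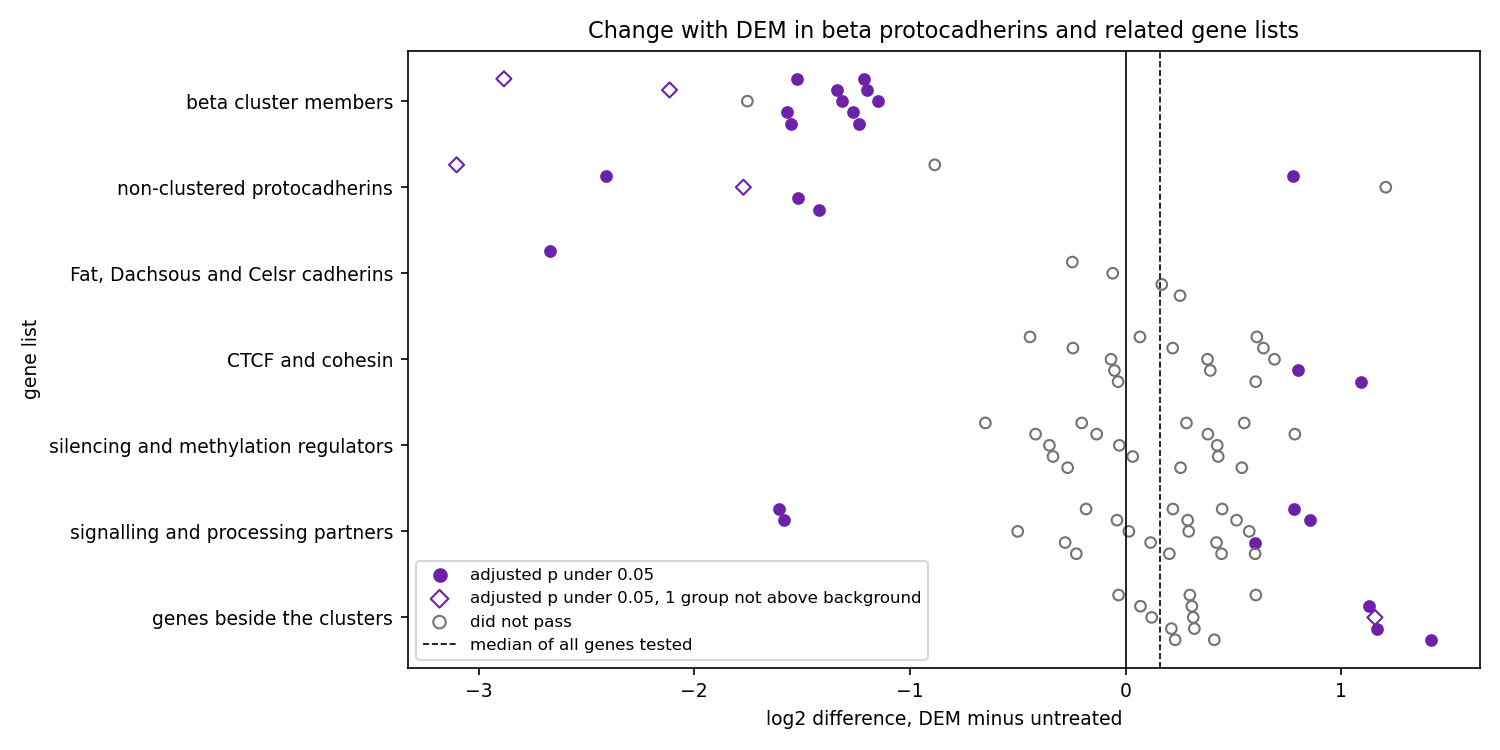
Log2 difference (DEM minus untreated, x axis) of every tested gene of the beta cluster and of 6 related lists (y axis); filled points passed, open diamonds passed but were not well above background in 1 group, grey circles did not pass, and the dashed line is the median of all genes tested. Beta members lay at or below -1.15, and all but 1 of the 15 genes beside the clusters lay above 0.

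Genes that act on the clusters were compared with the same fit. Of 15 CTCF and cohesin genes 2 were higher and 0 were lower, near the 15.5% higher over all genes tested. At an unadjusted limma p under 0.05, 3 were higher and 0 lower. The share of all genes at that unadjusted threshold was not computed. The unadjusted counts of any list are therefore not to be set beside 15.5% and 11.8%, which are at an adjusted p under 0.05. Wapl, which releases cohesin from DNA, was 2.13-fold higher (adjusted p = 0.0119), and Nipbl, which loads it, was 1.74-fold higher (adjusted p = 0.0307). Pds5b and Esco1 followed at 0.61 and 0.64 on the log2 scale and did not pass (adjusted p = 0.0871 and 0.134). Ctcf stood at 1.81 and 1.75 against 1.56 and 1.50, a difference of -0.24 that did not pass (adjusted p = 0.332). None of the 17 silencing and methylation regulators passed with limma, and 1 did at an unadjusted p under 0.05. The smallest adjusted p in that list was 0.107, for Rcor1, a corepressor that works with REST. Atf7ip, Dnmt3a and Tet2 came next, with differences of -0.42, 0.43 and -0.65 (adjusted p = 0.146, 0.192 and 0.195). Smchd1 stood at 3.66 and 3.05 against 3.79 and 3.77, a difference of 0.42 (adjusted p = 0.228).

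Of 22 tested genes for proteins that act with protocadherins at the membrane, 3 were higher and 2 were lower at an adjusted p under 0.05. These shares were near the 15.5% and 11.8% of all genes tested. At an unadjusted limma p under 0.05, 7 were higher and 2 were lower, with no all-gene share at that threshold. Marcks, an actin-linked substrate of protein kinase C that gamma protocadherins act on in dendrites, was 3.05-fold lower (adjusted p = 0.00451). Ptk2b, a focal adhesion family kinase that protocadherins inhibit, was 3.00-fold lower (adjusted p = 0.0463). Abi1 and Brk1, subunits of the WAVE actin regulator, were 1.81-fold and 1.51-fold higher (adjusted p = 0.0133 and 0.0369).

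Of 15 tested genes that flank the clusters in the RefSeq order, 4 were higher and 0 were lower with limma, beside 15.5% and 11.8% of all genes tested. At an unadjusted limma p under 0.05, 5 were higher and 0 lower, with no all-gene share at that threshold. Wdr55, on the alpha side, rose from 1.50 and 1.83 to 3.07 and 3.09 and was 2.67-fold higher (adjusted p = 0.00542). Diaph1, a formin on the gamma side, rose from 2.69 and 2.76 to 4.02 and 3.76 and was 2.24-fold higher (adjusted p = 0.00759). Slc25a2, a mitochondrial carrier between the beta and gamma clusters, was detected on the DEM arrays only and entered the test through them (adjusted p = 0.0476), with a bound of at least 1.91-fold higher from which nothing is read. Dnd1, an RNA-binding protein known from germ cells, was 2.18-fold higher (adjusted p = 0.0424). The median over these 15 tested genes was 0.31, beside 0.16 over all genes tested. This list does not hold every gene near the clusters, and protocadherins outside the clusters were listed apart from it.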

How the data were processed

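Total RNA of 4 samples (500 ng each) was labelled with Cy3, per the labels. The deposited intensity values were written by Feature Extraction 10.7.3.1 with protocol GE1_107_Sep09; the software had removed background and replaced low signals by surrogate values, per the file headers. The authors' deposited series table holds log2 values that matched log2 processed signal minus the 75th percentile within 0.01 for at least 99.97% of probes; it served as an alternative. The 4 arrays shared a slide and a scan, per the file headers.

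Control spots (1319 of 62976) and spots with an outlier mark (13 to 68 per array) were left out, replicate spots were averaged (61177 probes), and log2 processed signal was set relative to each array's 75th percentile, taken without control probes. No spot was saturated. Probes were named by accession (28041), symbol (4967) or synonym (1400) through RefSeq genes of GRCm38.p6, and the rest by the file. The headers name another genome build, so no coordinates or sequences are given. The 31771 probes well above background on at least 2 arrays were kept, with the brightest per gene. limma 3.58.1 in R 4.3.3 was used with an intensity trend and no covariate, with 2 residual and 4.03 prior degrees of freedom, two-sided. With 2 arrays per group, the number of arrays limits the precision. The script was tested on simulated data. A gene not well above background in a group has a fold given as a bound: the bright group's mean against, per array, the higher of the dim probe's level and the lowest level well above background. Members and lists were chosen with earlier results of these data known. Members measured on all arrays or passing the test are named with values; other lists are named by their 4 smallest p, with an item under this rule left out and not reported here. Pcdh19, Pcdh1, Ptk2b, Ctcf, Smchd1 and the marker genes are named beyond that rule, after their values were seen.

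Same-numbered samples did not pair by the labels, and their deviations correlated at 0.0844. Alternatives were normexp correction (offset 50), other scalings and filters, the mean of probes, no variance trend, a replicate block and each array left out; tests of single-transcript member probes and of each probe were added after the data were seen.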

Additional observations from a re-analysis of the deposited data

How the results depend on the processing

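All 217 values of tested beta members under the alternatives were below 0, from -3.18 to -0.08, but many of these signs could not change. The filter, variance trend, replicate block and single-transcript settings left the beta estimates of the main fit as they were. For all 13 tested beta members both DEM arrays were below both untreated arrays, so leaving out 1 array could not turn a sign. The 217 values are therefore not read as separate checks. The beta count of 12 was 1 with spike-in scaling, 10 with normexp and 13 with the replicate block, which added Pcdhb18 (adjusted p = 0.0131) and gave 3378 lower and 4473 higher genes; it ranged from 1 to 13 with 1 array left out. The beta median of -1.34 was -0.99 with normexp, -1.50 with the 75th percentile over detected probes and with spike-ins, and -1.16 to -1.49 with 1 array left out. The alpha count of 1 was 0 with spike-ins, with the mean of probes and with single-transcript probes, where Pcdha6 turned to 0.40, and 0 to 1 with an array left out. The gamma count of 2 was 0 with spike-ins, 1 with probes detected on all 4 arrays, the mean of probes, no variance trend or single-transcript probes, and 0 to 2 with an array left out. Without a filter, 3 undetected members (Pcdha4, Pcdhb1 and Pcdhb2) counted as higher. Over all genes, 2900 lower became 889 with spike-ins and 802 to 3814 with an array left out. The 3812 higher became 6496 with normexp, 2529 with cyclic loess, 363 with spike-ins, 17297 without a filter and 644 to 4488 with an array left out. The share of calls that were higher, 56.8%, was 70.2% with normexp, 42.0% with the percentile over detected probes, 40.8% with cyclic loess, 29.0% with spike-ins and 84.7% without a filter. The scalings over detected probes, by cyclic loess and by spike-ins moved the median of all genes from 0.16 to 0.0022, 0.012 and 0.00085; a group reduced to 1 array is assumed to vary like the other. The cause of the remaining changes was not tested. Dim signal in DEM cells limits what can be said of the 12 members not tested.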

Other observations

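Outside the member rule, 7 probes carry placeholder gene names described as similar to clustered protocadherins. LOC634282, described as similar to an alpha protocadherin, was the only one of the 7 that was well above background on more than 1 array; it was singled out after its values were seen. It stood at -3.97 and -3.56 in untreated cells and at -2.19 and -1.99 in DEM cells, both DEM arrays above both untreated arrays. It was 3.20-fold higher with DEM (SE 0.28 on the log2 scale, limma adjusted p = 0.0104), whereas none of the 18 named members tested was higher.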
